A study of Mus musculus with 10 samples.

Results

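The mitochondrial ribosomal proteins are here the genes whose platform symbol begins with Mrpl or Mrps followed by a digit, the usual names for proteins of the large and of the small subunit of the mitochondrial ribosome. The array carried 76 such symbols on 132 probes, 48 Mrpl and 28 Mrps. A probe was kept when it was detected above background, at a detection p under 0.05, on at least 2 of the 10 arrays, and each gene was read from its kept probe with the highest mean. This left 73 genes, 46 Mrpl and 27 Mrps, among 16272 genes and unnamed probes tested in all. The probes of Mrpl19, Mrpl32 and Mrps14 were detected on 0 of 10 arrays and these genes were not tested. Of the 73, 72 were detected on all 10 arrays. Mrpl39 was detected on 8, which were all 3 arrays of each BPA-exposed group and 1 of each vehicle-exposed group. No member passed through detection in 1 group alone. Mrps18a and Mrps30 carry small-subunit symbols although their proteins sit in the large subunit, and both are counted as Mrps below.

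The data are RNA levels in the uterus of CD-1 mice, an outbred stock, on 10 Illumina bead arrays. Pregnant dams received bisphenol A (BPA), a plastics monomer with estrogenic activity, or its DMSO vehicle by intraperitoneal injection. The dose was 5 mg/kg per day and dosing ran over gestation days 9 to 21. All offspring were ovariectomised at 6 weeks, received 300 ng of estradiol (E2) or DMSO vehicle at 8 weeks, and gave their uterus 6 h later. The 4 groups are BPA in utero with E2 injection (3 arrays), BPA in utero with vehicle injection (3 arrays), vehicle in utero with E2 injection (2 arrays) and vehicle in utero with vehicle injection (2 arrays). The tissue is that of castrated females, and each array held RNA pooled by litter, from 3 BPA litters and 2 vehicle litters that each gave an E2-injected and a vehicle-injected array. The array barcodes place all vehicle-exposed arrays on slide 1 and all BPA-exposed arrays on slide 2. For the BPA effects, slide and exposure therefore cannot be told apart, while each E2 response lies within a slide. Between 19723 and 21109 probes were detected per array, the median raw signal was 122 to 132, and replicate arrays correlated at 0.992 to 0.994. Smooth muscle and stromal marker probes (6 of 6 each) and 7 of 8 epithelial ones were detected, while the Epcam probe was not.

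Mitochondrial ribosomes translate the few respiratory chain subunits that mitochondrial DNA encodes. Their RNAs are mitochondrial, but every protein of the particle is made in the cytosol from nuclear genes and imported. Some of these proteins descend from bacterial ribosomal proteins, and others were added in the mitochondrial lineage. In the rodent uterus E2 acts through estrogen receptor alpha and sets off a phase of RNA and protein synthesis before cells divide.

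The genes are scattered over the genome, and some features were more frequent in their promoters than in those of protein-coding genes at large. Whether these features bear on the changes below was not tested. RefSeq start sites (GRCm38.p6) gave windows of 300 bases, 250 before to 50 after the start, for 65 of the 73 genes, 71 windows in all. Each window was searched on both strands. The ETS-type motif CCGGAAG, or its reverse complement CTTCCGG, stood in 26 of the 71 windows (36.6%), against 11.6% of the windows of protein-coding genes. The YY1-type motif AAGATGGCG stood in 8 (11.3%, against 1.83%), the NRF1 motif, GCGCA followed directly by its reverse complement TGCGC, in 2 (2.82%, against 1.33%) and the E-box CACGTG in 7 windows of 5 genes (9.86%, against 7.84%). The estrogen response element, GGTCA and TGACC with 3 bases of any kind between them, stood in 0 (against 0.0517%). The ETS-type motif ends in the letters with which the YY1-type motif begins, so that both can share a site. Of the windows of genes that rose after BPA in vehicle-injected uteri (below), 10 of 24 held the ETS-type motif (41.7%), and of those of the other members 16 of 47 (34.0%). The E-box stood in 5 of these 24 windows and in 2 of the 47. Overlapping windows of Mrpl2 counted the same E-box more than once. By gene, the E-box was found for 3 of 22 and for 2 of 43. The YY1-type motif stood in 1 of the 24 (4.17%) and in 7 of the 47 (14.9%), and the NRF1 motif in 0 and in 2. The median GC content was 58.7% in the member windows and 56.3% in protein-coding windows. The median count of the letters CG in a row was 22 and 13 per window. The ETS-type and the YY1-type motif both contain CG, and the windows compared were not matched for it. The 80 bases before the start are printed 5′ to 3′ on the gene's own strand for 5 members with the ETS-type motif and for Mrpl20, one of those with an E-box, with the motif in capitals. They are chr2:130563677-130563756 (plus strand) for Mrps26, chr9:98601680-98601759 (minus strand) for Mrps22, chr9:105053188-105053267 (plus) for Mrpl3, chr14:54426829-54426908 (plus) for Mrpl52, chr8:71464846-71464925 (plus) for Mrpl34 and chr4:155802798-155802877 (plus) for Mrpl20.
Mrps26: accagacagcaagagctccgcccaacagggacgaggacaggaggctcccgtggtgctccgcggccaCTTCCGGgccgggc
Mrps22: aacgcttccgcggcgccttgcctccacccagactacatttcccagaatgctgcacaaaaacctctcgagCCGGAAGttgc
Mrpl3: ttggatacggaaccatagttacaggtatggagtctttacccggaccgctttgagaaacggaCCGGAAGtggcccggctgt
Mrpl52: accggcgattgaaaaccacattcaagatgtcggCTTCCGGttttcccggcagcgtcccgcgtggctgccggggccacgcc
Mrpl34: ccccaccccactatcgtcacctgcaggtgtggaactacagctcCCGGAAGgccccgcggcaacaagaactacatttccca
Mrpl20: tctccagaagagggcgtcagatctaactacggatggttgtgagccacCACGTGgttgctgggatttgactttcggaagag
The motif began 14 bases before the start in Mrps26, 11 in Mrps22, 19 in Mrpl3, 47 in Mrpl52 and 37 in Mrpl34, and the E-box of Mrpl20 began 33 bases before it. The first 4 of these genes rose in at least 1 comparison below and fell in none, whereas Mrpl34 fell. The genes to print were picked without a rule, so their directions do not describe the other members with the motif.

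The genes also often share their start region with a neighbour. Of the 65 genes with a window, 25 (38.5%) had the start of another gene on the opposite strand within 1000 bases, running away from them, against 13.9% of protein-coding genes. Mrpl46 and Mrps11 form such a couple with each other, so that a large-subunit and a small-subunit gene are read in opposite directions from the 41 bases between their starts, chr7:78783090-78783130, printed on the plus strand because both genes are members.
Mrpl46–Mrps11: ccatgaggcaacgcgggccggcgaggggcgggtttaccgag
The Mrpl46 probe rose in vehicle-injected BPA-exposed uteri by 0.33 ± 0.08 log2 (SE) and the Mrps11 probe in E2-injected vehicle-exposed uteri by 0.38 ± 0.10. Mrps12, which encodes a protein of the decoding centre, starts 147 bases from Sars2, the mitochondrial seryl-tRNA synthetase gene.

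The plainest feature of the 73 genes was a low level in uteri that had seen neither BPA nor E2. All levels are normalized log2 intensities, and differences are log2 changes. The mean deviation of the members from their own 4-group mean was 0.090 to 0.113 on the 3 arrays with BPA in utero and E2 injection. It was 0.044 to 0.10 on the 3 with BPA in utero and vehicle injection, and -0.018 and 0.009 on the 2 with vehicle in utero and E2. On the 2 arrays with vehicle in utero and vehicle injection it was -0.150 and -0.181. The same mean over all tested genes and probes lay between -0.010 and 0.014 on every array. The group mean was lowest after vehicle in utero with vehicle injection for 54 of the 73 genes (74.0%), against 34.3% of everything tested. Both of these arrays lay below all 8 other arrays for 31 members (42.5%, against 16.1% of everything tested) and above all 8 for 1 (1.37%, against 15.0%). The 31 were 15 Mrpl and 16 Mrps genes.

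**Figure D1:**
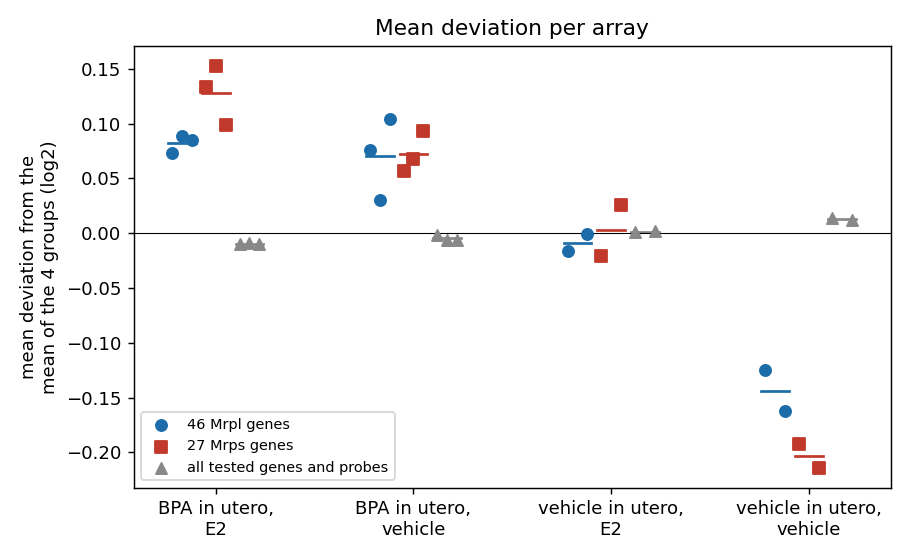
Mean deviation of each array (log2, y axis) from the mean of the 4 groups, over 46 Mrpl genes (circles), 27 Mrps genes (squares) and all tested genes and probes (triangles), by group on the x axis; points are arrays and bars group means. Both vehicle-vehicle arrays are lowest for both gene sets, at -0.125 and -0.162 for Mrpl and -0.192 and -0.214 for Mrps, while the triangles stay within 0.014 of 0.

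The changes were small. The range of the 4 group means had a median of 0.35 log2 over the members and 0.50 over everything tested, and it passed 1 for 0 members but for 14.3% of everything tested. It was widest for Mrpl52 (0.84), Mrps18b (0.80), Mrps28 (0.79) and Mrpl20 (0.79). Replicates of the members were close, with a median SD within a group of 0.067 to 0.076, against 0.103 to 0.126 over everything tested. The ranges were not adjusted for this wider spread. In these bulk samples fewer cells of a type and less RNA per cell cannot be told apart. In all, 35 members passed the test in at least 1 of the 5 comparisons, an adjusted p under 0.05 by limma with p-values adjusted over everything tested, and 38 passed in none. The 35 are 47.9% of the members, below the 54.7% of everything tested that passed at least once. In the 4 comparisons of groups, 31 members (42.5%) rose at least once, against 32.5% of everything tested, and 5 (6.85%) fell at least once, against 29.9%. Another 3, Mrpl18, Mrpl40 and Mrps18c, were called lower in the difference of the E2 responses alone.

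**Figure D2:**
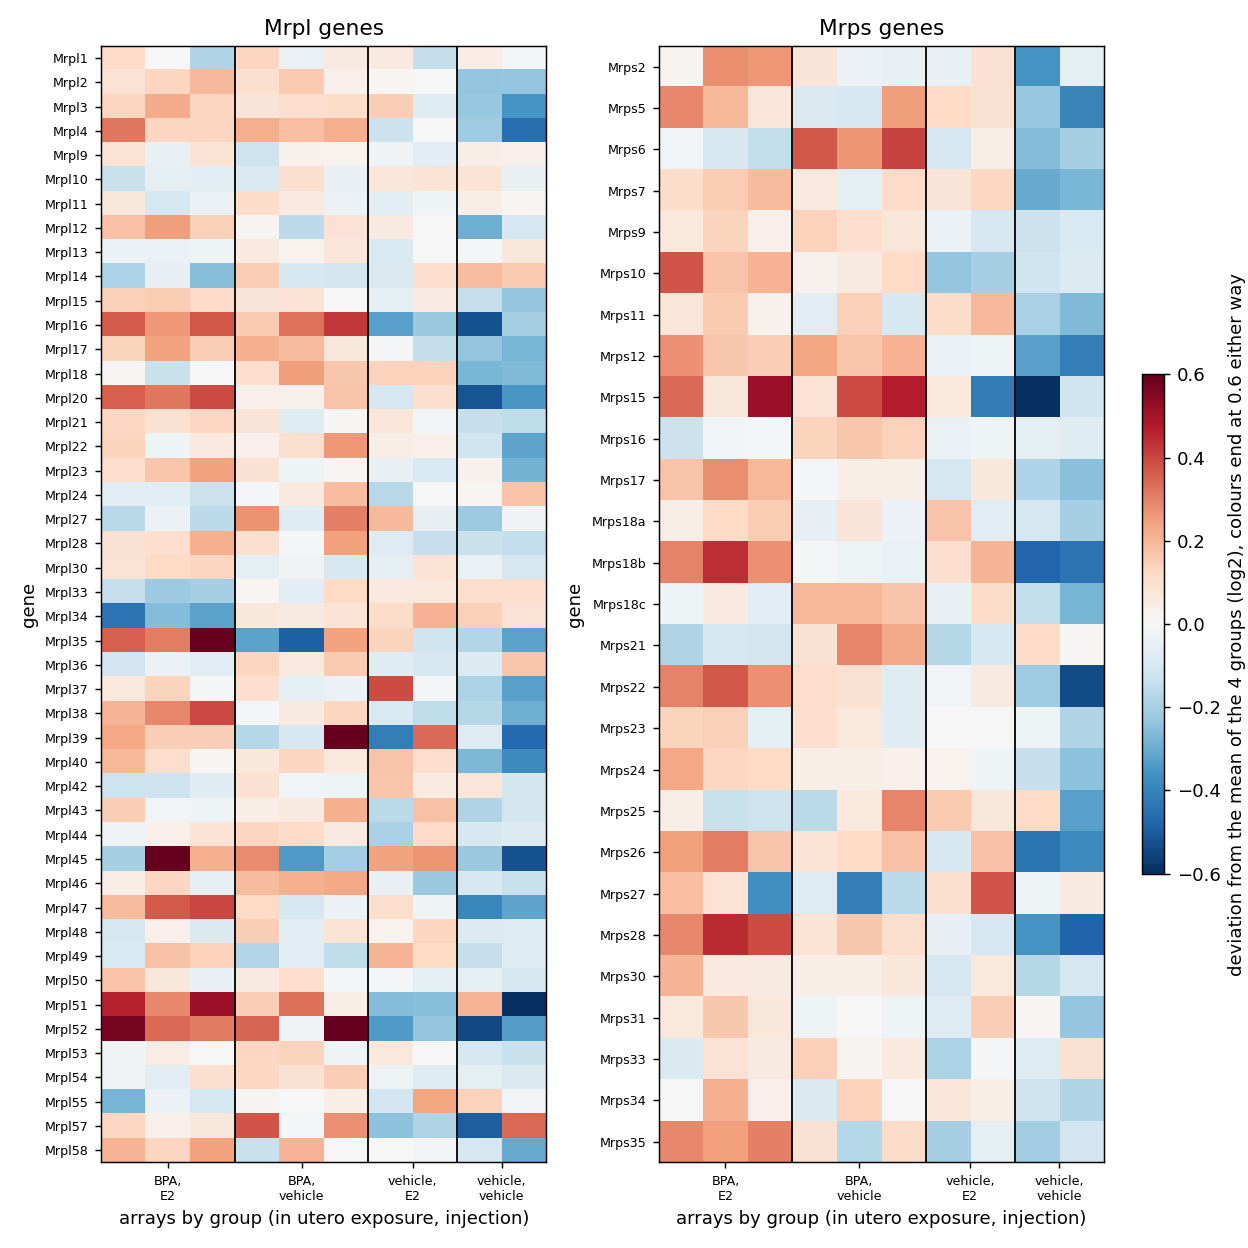
Deviation of each array from the mean of the 4 groups (log2, colour, ending at 0.6 either way) for the 46 Mrpl and 27 Mrps genes in rows, with arrays in columns by in utero exposure and injection. The 2 columns at the right of each panel, vehicle in utero with vehicle injection, are mostly blue. That group had the lowest mean for 54 of the 73 genes, and Mrpl14, Mrpl33 and Mrpl34 are among those that depart from that pattern.

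The effect of BPA in utero without E2 was read from vehicle-injected uteri. Of the 73 genes, 26 rose and 0 fell, where 15.6% of everything tested rose and 15.5% fell. At an unadjusted p under 0.05, 32 were higher and 0 lower. The median change was 0.22, against 0.02 over everything tested, and 64 of 73 changes (87.7%) were above 0. These 26 comprised 14 of 46 Mrpl and 12 of 27 Mrps genes. Leaving out either vehicle-vehicle array gave 16 rises, as did a fit of the compared groups alone. Mrpl30 (0.01, 95% interval -0.16 to 0.18) and Mrpl24 (-0.01, -0.23 to 0.20) had the smallest changes.

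Among proteins of the large subunit with bacterial relatives, 10 of 27 rose. Mrpl16, whose bacterial relative lies near the tRNA sites, stood at 8.54, 8.71 and 8.81 in vehicle-injected BPA-exposed uteri, against 7.86 and 8.18 in vehicle-injected vehicle-exposed uteri. The groups did not overlap, and the rise was 0.66 ± 0.12 (SE, 1.58-fold, adjusted p = 0.00315). Mrpl4, related to a bacterial protein that lines the exit tunnel, averaged 9.99 ± 0.02 (SD, n = 3), against 9.45 ± 0.17 (n = 2) after vehicle in utero. It rose by 0.54 ± 0.10 (1.45-fold, adjusted p = 0.00384), with all BPA arrays above both vehicle arrays. Mrpl20, related to a bacterial protein needed early in subunit assembly, stood at 10.28, 10.27 and 10.42, against 9.73 and 9.90 after vehicle. The rise was 0.51 ± 0.09 (1.42-fold, adjusted p = 0.0039). Mrpl18, Mrpl17, Mrpl3, Mrpl47, Mrpl22, Mrpl2 and Mrpl15 rose by 0.44, 0.41, 0.39, 0.35, 0.35, 0.33 and 0.24. The sizes for Mrpl3 and Mrpl15 depend on the probe. Of the other kept Mrpl3 probes, 1 gave 0.56 here and 0.73 for BPA under E2, where the chosen probe gave 0.13, and another gave -0.23 here (not called). The 6 kept Mrpl15 probes gave -0.09 to 0.64 here and -0.01 to 0.74 under E2. With every probe tested, the chosen Mrpl15 probe lost its call (adjusted p = 0.0598). Mrpl14 had the lowest change of this class, -0.19 ± 0.11, which did not pass the test (adjusted p = 0.224).

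Among proteins that the large subunit gained in mitochondria, 4 of 16 rose. Mrpl52 stood at 10.90, 10.53 and 11.16 in the BPA-exposed uteri, against 10.01 and 10.22 in the vehicle-exposed uteri, a rise of 0.75 ± 0.17 (1.68-fold, adjusted p = 0.0112) in which the BPA arrays spread over more than 0.6. The others, Mrpl40, Mrpl46 and Mrpl38, belong to the central protuberance, the knob of the large subunit that faces the small one, and rose by 0.41, 0.33 and 0.29. The lowest of this class was Mrpl49 at -0.02 (adjusted p = 0.88). With Mrpl18 that made 4 of the 5 listed proteins of the protuberance, the fifth being Mrpl48 at 0.14 ± 0.09 (adjusted p = 0.283). Of 8 listed proteins around the tunnel exit 3 rose, and of the 3 proteins of the stalk, where translation factors dock, 0 did. Stalk changes were 0.18 for Mrpl12, 0.02 for Mrpl11 and -0.03 for Mrpl10, and a second Mrpl10 probe changed by 0.76 (adjusted p = 0.00327 with every probe tested), so the Mrpl10 reading depends on the probe.

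Among small-subunit proteins classed as conserved, with bacterial relatives, 9 of 15 rose, and every one of the 15 changes was above 0. The lowest was Mrps21 at 0.14 ± 0.09 (adjusted p = 0.245). Mrps12 stood at 11.71, 11.64 and 11.68 in vehicle-injected BPA-exposed uteri, against 11.15 and 11.07 in vehicle-injected vehicle-exposed uteri. The gap between the groups was several times their spread, and the rise was 0.57 ± 0.07 (1.49-fold, adjusted p = 0.000609), the smallest p among the members. Mrps6, whose bacterial relative binds the platform of the small subunit together with the Mrps18 relative, stood at 11.10, 10.99 and 11.13, against 10.47 and 10.53 after vehicle in utero. It rose by 0.58 ± 0.08 (1.49-fold, adjusted p = 0.00109). Mrps28 stood at 9.85, 9.93 and 9.88, against 9.42 and 9.29 after vehicle in utero, a rise of 0.54 ± 0.08 (adjusted p = 0.00134). Mrps15, a dim probe, had the largest value, 0.76 ± 0.23 (1.70-fold, adjusted p = 0.0354), from 7.44, 7.75 and 7.83 against 6.58 and 7.24 after vehicle. Mrps18c, Mrps7, Mrps17, Mrps24 and Mrps9 rose by 0.40, 0.33, 0.24, 0.23 and 0.22. Mrps17, Mrps24 and Mrps9 passed narrowly (adjusted p = 0.0495, 0.0470 and 0.0484). With every probe tested they lost their call (0.0687, 0.0681 and 0.0713). Of 10 small-subunit proteins classed as added in mitochondria 3 rose. Mrps18b is listed in this class, although the Mrps18 family has a bacterial relative. Mrps26 stood at 10.07, 10.11 and 10.16, against 9.55 and 9.61 after vehicle (0.54 ± 0.10, adjusted p = 0.00309). Mrps18b stood at 10.81, 10.79 and 10.78, against 10.34 and 10.38 after vehicle (0.43 ± 0.08, adjusted p = 0.00354). Mrps22 rose by 0.42, and the lowest change was that of Mrps27, -0.23 ± 0.18 (adjusted p = 0.366). Of the 26 rises, 11 held without any single array, those of Mrpl4, Mrpl16, Mrpl17, Mrpl18, Mrpl20, Mrpl40, Mrps6, Mrps12, Mrps18b, Mrps26 and Mrps28.

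**Figure D3:**
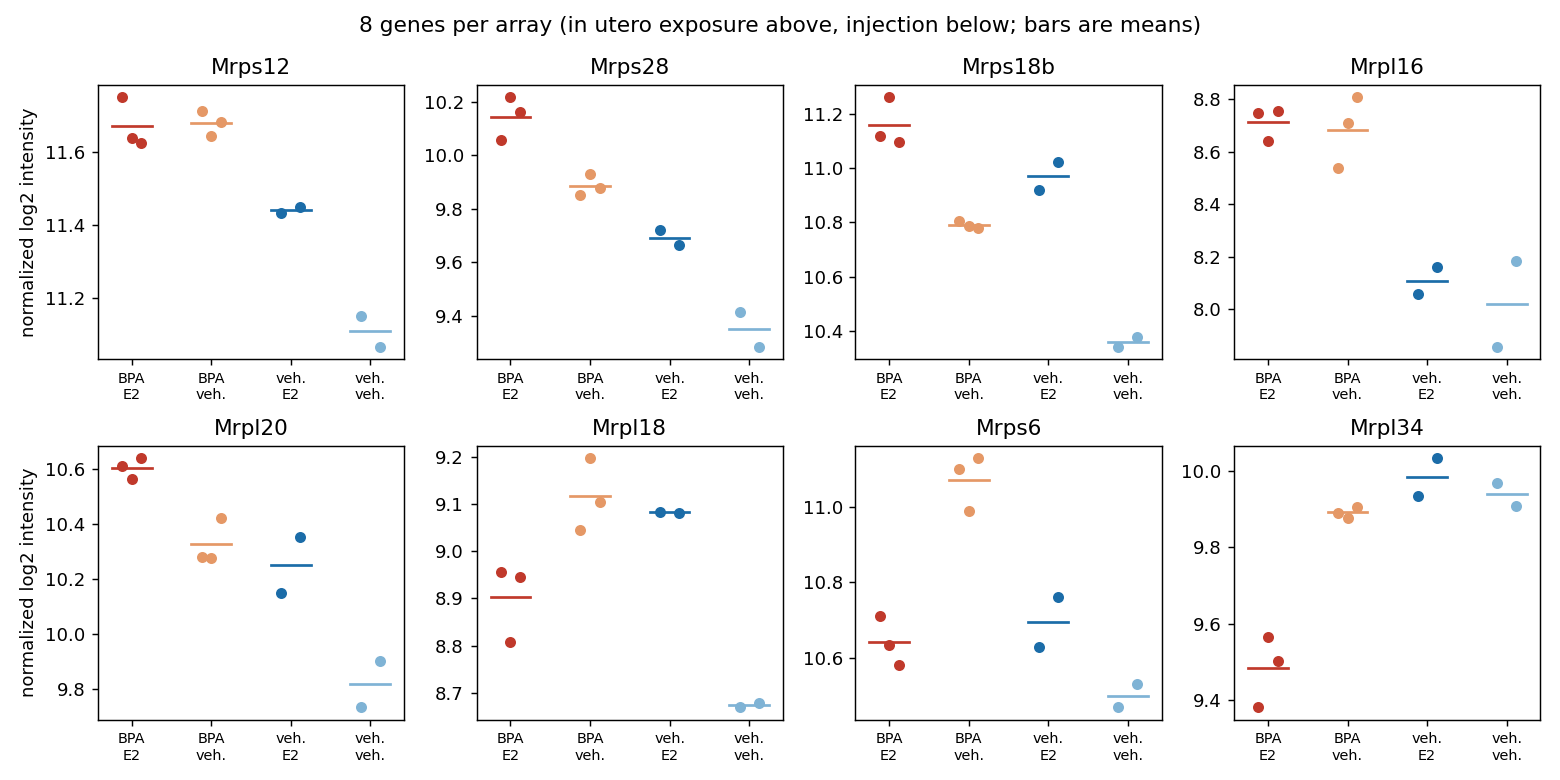
Normalized log2 intensity (y axis, its own scale per gene) of 8 genes on each array, by group on the x axis (in utero exposure, then injection); points are arrays and bars group means. The vehicle-vehicle mean is lowest for the first 7 genes, Mrps6 is highest after BPA in utero with vehicle injection, and Mrpl34 is lowest after BPA in utero with E2.

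The E2 response after vehicle in utero compared the 2 E2-injected with the same 2 vehicle-injected vehicle-exposed arrays, which the previous comparison also used. Of the 73 genes 13 rose and 0 fell, where 11.0% of everything tested rose and 11.4% fell. At an unadjusted p under 0.05, 22 were higher and 0 lower. The median change was 0.17, against 0.02 over everything tested, and 60 changes (82.2%) were above 0. With litter as a block 5 rose and 0 fell. Without 1 array the rises numbered 5 or 4 (either E2 array left out) and 6 or 5 (either vehicle array), so this count rests on each of the 4 arrays. Fitted on these 2 groups alone, Mrps18b was the 1 rise left.

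Mrps18b had the largest called rise. It stood at 10.92 and 11.02 in E2-injected uteri, against 10.34 and 10.38 in vehicle-injected uteri, without overlap (0.61 ± 0.09, 1.53-fold, adjusted p = 0.00152). Mrpl40 stood at 10.10 and 10.03 after E2, against 9.66 and 9.55 after vehicle injection (0.46 ± 0.09, adjusted p = 0.00748). These 2 held their call without any single array and with the litter block, although Mrpl40 had an adjusted p of 0.0717 with the 2 groups fitted alone. Mrps26 stood at 9.89 and 10.16 after E2, against 9.55 and 9.61 after vehicle injection (0.45 ± 0.10, adjusted p = 0.0162). Mrpl20 rose by 0.43 ± 0.10 and Mrps7, a head protein of the small subunit by its bacterial relative, by 0.39 ± 0.08, and these and Mrps26 also kept their call with the block. Mrpl37 (0.44), Mrpl18 (0.41), Mrpl47 (0.39), Mrps22 (0.39), Mrps11 (0.38), Mrps28 (0.34), Mrps12 (0.33) and Mrpl3 (0.32) rose in the fit without the block and had adjusted p between 0.0501 and 0.103 with it. By role, 4 of 27 conserved and 2 of 16 added large-subunit proteins rose, and 4 of 15 conserved and 3 of 10 added small-subunit proteins. The highest change of the added large-subunit proteins was that of Mrpl45, 0.63 ± 0.27, which did not pass (adjusted p = 0.135). It stood at 5.90 and 5.93 after E2, against 5.44 and 5.14 after vehicle injection. Its SE rests on all 4 groups, and its SD after BPA in utero was 0.40 with E2 and 0.33 with vehicle injection. Mrpl55 had the smallest change, 0.00 (95% interval -0.30 to 0.30), followed by Mrpl46 at -0.02 (-0.23 to 0.19). Mrps5 (0.42 ± 0.14, adjusted p = 0.0572) was the highest conserved small-subunit protein. Lowest in their classes were Mrps21 (-0.20), Mrpl24 (-0.18) and Mrps33 (-0.11), and the stalk ran between -0.07 for Mrpl11 and 0.22 for Mrpl12, none of them called.

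The E2 response after BPA in utero compared the 3 E2-injected with the 3 vehicle-injected BPA-exposed arrays. Of the 73 genes 6 rose and 4 fell, where 15.3% of everything tested rose and 13.7% fell, 29.0% in all. The median change was 0.04, against 0.03 over everything tested, and 42 changes (57.5%) were above 0. The shares of members called, 8.22% higher and 5.48% lower, lay below those of everything tested. With litter as a block 3 rose and 3 fell, and with loess normalization 4 rose and 6 fell. Leaving out an array left 1 to 6 rises (1 without E2 array 2 or 3, 2 without vehicle array 1 or 2, 3 without vehicle array 3) and 3 to 5 falls.

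Rises were led by Mrpl35, a dim large-subunit probe, at 7.33, 7.28 and 7.59 in E2-injected uteri, against 6.64, 6.48 and 7.21 in vehicle-injected uteri (0.62 ± 0.18, 1.54-fold, adjusted p = 0.0336). Mrps18b stood at 11.12, 11.26 and 11.10 after E2, against 10.81, 10.79 and 10.78 after vehicle injection (0.37 ± 0.07, 1.29-fold, adjusted p = 0.0049). Mrpl20 stood at 10.61, 10.56 and 10.64, against 10.28, 10.27 and 10.42 (0.28 ± 0.08, adjusted p = 0.038). The groups did not overlap for any of these genes. Mrpl47, a tunnel-exit protein, rose by 0.32, Mrps28 by 0.26 and Mrpl38 by 0.24, calls that the litter block ended (adjusted p = 0.0865, 0.0546 and 0.0629). Mrps18b was the only rise that held without any single array.

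Falls were led by Mrps6, at 10.71, 10.63 and 10.58 after E2, against 11.10, 10.99 and 11.13 after vehicle injection. Every E2 array lay below every vehicle array, and the change was -0.43 ± 0.07 (adjusted p = 0.0029). Mrpl34, a small conserved protein of the large subunit, stood at 9.38, 9.57 and 9.50 after E2, against 9.89, 9.88 and 9.91 after vehicle injection (-0.41 ± 0.07, adjusted p = 0.00312). Mrps21 stood at 9.99, 10.07 and 10.07, against 10.27, 10.47 and 10.40 (-0.34 ± 0.08, adjusted p = 0.0109). These 3 falls held without any single array and with the block. The fourth, Mrps16, changed by -0.20 ± 0.06 (adjusted p = 0.0453, and 0.107 with the block). Of the 4 falls, 3 were small-subunit proteins classed as conserved, a class of which 15 were tested and Mrps28 alone rose. In that class 20% fell and 6.67% rose, against 13.7% and 15.3% of everything tested. The smallest changes were those of Mrps12 (-0.01, 95% interval -0.16 to 0.14) and Mrps15 (-0.01, -0.48 to 0.46). Several extremes of the classes were not called. The added large-subunit proteins ran between -0.17 for Mrpl46 and 0.29 for Mrpl45, and the stalk between -0.07 for Mrpl10 and 0.21 for Mrpl12. The lowest values were -0.21 for Mrpl18 in the protuberance, -0.16 for Mrpl24 around the tunnel exit and -0.14 for Mrps25 among added small-subunit proteins.

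**Figure D4:**
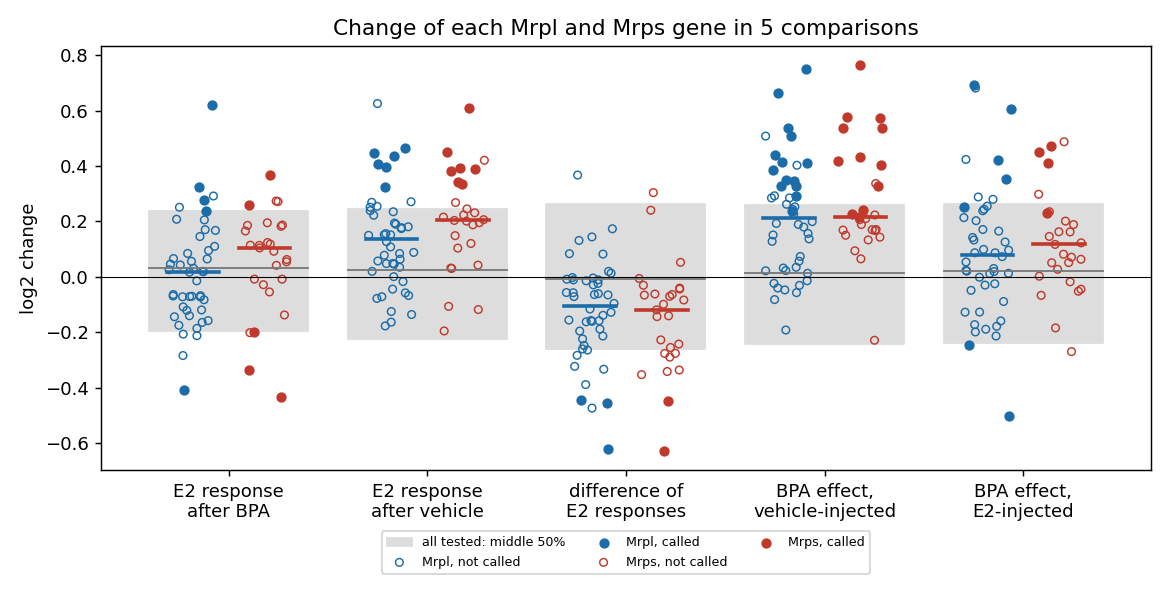
Log2 change (y axis) of each Mrpl (blue) and Mrps (red) gene in the 5 comparisons (x axis); filled points passed an adjusted p under 0.05, coloured bars are medians of the gene sets, and grey bands and lines give the middle 50% and the median of everything tested. Filled points lie only above 0 for the BPA effect in vehicle-injected uteri (26) and the E2 response after vehicle (13), and only below 0 for the difference of the E2 responses (5).

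The difference between the E2 responses, after BPA minus after vehicle in utero, was tested in the same fit, and the 2 responses share no array. Of the 73 genes 0 had a higher and 5 a lower response after BPA, where 7.87% of everything tested had a higher and 7.70% a lower one. At an unadjusted p under 0.05 the members numbered 1 higher and 11 lower. The median difference was -0.12, against -0.01 over everything tested. The response was lower after BPA for 62 of 73 genes (84.9%), against 51.0% of everything tested. All 10 arrays enter this difference, and the vehicle-vehicle arrays, lowest for most members, enter it with the sign that lowers it.

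Mrps6 and Mrpl18 differed by the most. The response of Mrps6 was -0.43 ± 0.07 after BPA and 0.20 ± 0.09 after vehicle, a difference of -0.63 ± 0.12 (adjusted p = 0.00814). Mrpl18, a protein of the central protuberance, stood at 8.96, 8.81 and 8.95 after BPA with E2 and at 9.05, 9.20 and 9.11 after BPA with vehicle injection. It stood at 9.08 and 9.08 after vehicle in utero with E2 and at 8.67 and 8.68 with vehicle injection. The vehicle-vehicle arrays were lowest and the BPA, E2 arrays next, and the difference was -0.62 ± 0.11 (adjusted p = 0.00713). Both differences held under every alternative tried. Mrpl34 (-0.45 ± 0.11), Mrps18c (-0.45 ± 0.12) and Mrpl40 (-0.44 ± 0.12) also passed (adjusted p = 0.0283, 0.0342 and 0.0353), but not with litter as a block (0.0901, 0.106 and 0.0836), which left 2 differences. Leaving out 1 array left 2 to 4, and without the second vehicle-vehicle array 1 member had a higher response. Mrpl20, Mrpl47, Mrps18b and Mrps28 rose in both responses, 66.7% of the 6 rises after BPA and 30.8% of the 13 after vehicle. Over everything tested the shares were 29.4% and 41.1%, so the members' share was above that of everything tested for the first list and below it for the second. The smallest differences of response were those of Mrpl11 (0.00, 95% interval -0.26 to 0.26) and Mrpl57 (0.00, -0.69 to 0.68). The highest of their classes were Mrpl35 (0.37), Mrps10 (0.30), Mrps35 (0.24), Mrpl51 (0.17), Mrpl38 (0.13) and Mrpl23 (0.08), and the lowest of theirs included Mrps25 (-0.35), Mrpl45 (-0.33) and Mrpl10 (-0.13). None of these passed the test.

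**Figure D5:**
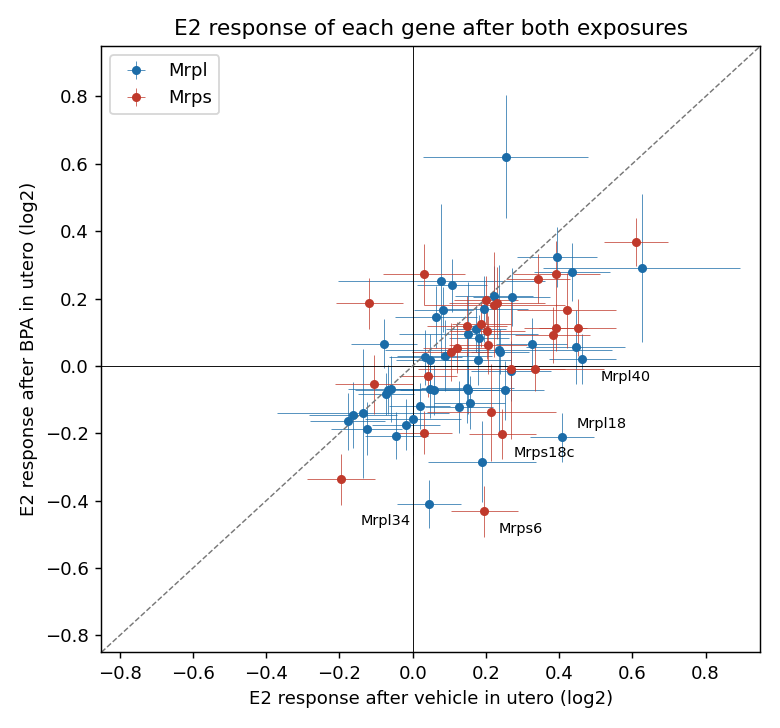
E2 response of each gene after BPA in utero (y axis, log2) against its response after vehicle in utero (x axis, log2), Mrpl in blue and Mrps in red, with SE bars; the dashed line marks equal responses and the 5 genes with a called difference are named. Of 73 genes 62 lie below the line, and none of the named ones lies above it.

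The effect of BPA in utero under E2 compared the 3 BPA-exposed with the 2 vehicle-exposed E2-injected arrays. Of the 73 genes 9 rose and 2 fell, where 15.6% of everything tested rose and 15.4% fell, so the share of rises (12.3%) was below that of everything tested. The median change was 0.09, against 0.02. Leaving out the first vehicle-exposed E2 array left 4 rises, and 1 of the 2 falls was lost without most single arrays. Mrpl52 stood at 11.12, 10.89 and 10.86 in E2-injected BPA-exposed uteri, against 10.21 and 10.32 in E2-injected vehicle-exposed uteri (0.69 ± 0.17, 1.61-fold, adjusted p = 0.0162). Mrpl16 stood at 8.75, 8.64 and 8.76, against 8.06 and 8.16 after vehicle in utero (0.61 ± 0.12, 1.52-fold, adjusted p = 0.00518). Both were also higher after BPA in vehicle-injected uteri, on other arrays of the same slides. Mrps10 stood at 9.51, 9.31 and 9.34, against 8.90 and 8.94 after vehicle in utero (0.47 ± 0.08, adjusted p = 0.00318). A second Mrps10 probe changed by 1.30 here and by 1.53 in vehicle-injected uteri (adjusted p = 0.000371 and 0.000141 with every probe tested), where the chosen probe gave 0.17 (adjusted p = 0.168), so the size of the Mrps10 effect depends on the probe. Mrps28 (0.45), Mrpl38 (0.42), Mrps35 (0.41), Mrpl20 (0.35), Mrpl17 (0.25) and Mrps12 (0.23) rose as well. Mrpl34 fell by 0.50 ± 0.08 (adjusted p = 0.00187), at 9.38, 9.57 and 9.50 against 9.93 and 10.03, and Mrpl33 changed by -0.24 ± 0.08 (adjusted p = 0.0422). The calls of Mrpl16, Mrpl34, Mrpl38, Mrps10 and Mrps28 held without any single array. Mrpl24 (0.00, 95% interval -0.22 to 0.21) and Mrps21 (0.00, -0.19 to 0.20) had the smallest changes. The extremes of the classes that were not called were Mrps15 (0.49), Mrpl47 (0.28) and Mrpl12 (0.16) at the upper end, and Mrps27 (-0.27), Mrpl42 (-0.21), Mrpl18 (-0.18), Mrpl10 (-0.16), Mrps11 (-0.07) and Mrpl45 (-0.05) at the lower end.

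With every probe tested, 27 members had several kept probes, and 0 of them had probes called in opposite directions in a comparison. Their probes often differed in whether they were called. Among the genes with a called probe, another probe was not called for 6 of 11 in BPA with vehicle injection, 6 of 8 in the E2 response after vehicle and 4 of 4 in that after BPA. The same held for 1 of 1 in the difference of responses and 7 of 7 in BPA under E2.

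With all arrays, Mrps genes had medians further from 0 than Mrpl genes in each comparison, though the gap was small in some. The medians after BPA with vehicle injection were 0.21 for Mrpl and 0.22 for Mrps, and those of the E2 response after vehicle 0.14 and 0.21. The E2 response after BPA had medians of 0.02 for Mrpl and 0.10 for Mrps. Those of the difference of responses were -0.11 and -0.12, and those of BPA under E2 0.08 and 0.12. The order reversed when certain single arrays were left out. BPA under E2 gave 0.091 for Mrpl and 0.083 for Mrps without BPA-exposed E2 array 2. Without vehicle-exposed E2 array 1 it gave 0.074 and 0.073. The difference of responses gave -0.116 and -0.093 without vehicle-injected BPA array 2, and -0.122 and -0.098 without vehicle-vehicle array 2. In the other comparisons the order held without any single array. In percent of genes, rises after BPA with vehicle injection were 30.4% for Mrpl and 44.4% for Mrps, and in the E2 response after vehicle 6 of 46 Mrpl and 7 of 27 Mrps genes rose. Both vehicle-vehicle arrays lay below the other 8 for 32.6% of Mrpl and 59.3% of Mrps genes. Per array, the Mrps mean minus the Mrpl mean was 0.014 to 0.064 with BPA and E2, -0.019 to 0.037 with BPA and vehicle injection, -0.004 and 0.027 with vehicle in utero and E2, and -0.067 and -0.051 on the vehicle-vehicle arrays. The difference between the 2 subunits has no test here, since the genes of a set are not replicates.

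Other proteins of the mitochondrial ribosome and its translation system were read for context from lists chosen with earlier results of these data known. Gadd45gip1, which encodes a large-subunit protein that carries no Mrpl name, changed by more than any chosen member probe. It stood at 7.59, 7.26 and 7.67 after BPA with E2 and at 8.07, 7.90 and 7.75 after BPA with vehicle injection. The values were 6.59 and 6.67 after vehicle with E2 and 5.68 and 5.80 after vehicle with vehicle injection. The last 2 are dim, near the 5.44 and 5.14 of Mrpl45, a dim probe, on the same arrays. The BPA effect on Gadd45gip1 was 2.17 ± 0.14 in vehicle-injected uteri (adjusted p = 1.2e-05). Its E2 responses were -0.40 after BPA and 0.89 after vehicle, a difference of -1.29 ± 0.20 (adjusted p = 0.00267). The other 3 such genes tested, Dap3, Ptcd3 and Chchd1 of the small subunit, each passed 1 test. Dap3 rose by 0.25 after BPA with vehicle injection, Ptcd3 changed by -0.82 in the BPA effect under E2, and Chchd1 rose by 0.30 in the E2 response after BPA.

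Of everything tested, 15.6% rose and 15.5% fell after BPA with vehicle injection, 15.3% and 13.7% in the E2 response after BPA, and 11.0% and 11.4% in that after vehicle. Among 14 translation factors 6 rose (42.9%) and 0 fell after BPA with vehicle injection, including Tsfm (0.56) and Gfm1 (0.38), elongation factors, and Mtif2 (0.36), the initiation factor that brings in the initiator tRNA. Mtif2 also rose in both E2 responses, by 0.42 after BPA and 0.67 after vehicle. Among 18 genes of ribosome assembly 5 rose (27.8%) and 1 fell (5.56%) after BPA with vehicle injection, led by the rRNA methyltransferase gene Mrm3 (0.86), C1qbp (0.57) and the GTPase gene Noa1 (0.47). After BPA, 6 of these 18 rose (33.3%) and 1 fell with E2, with C1qbp at 0.46. Of 14 mitochondrial tRNA synthetases 5 rose (35.7%) and 0 fell after BPA with vehicle injection, led by Vars2 at 0.72. Of 12 regulators of mitochondrial genes 4 rose (33.3%) in each E2 response, and Esrra fell after BPA (-0.41). Pprc1, a coactivator of mitochondrial gene expression, rose by 0.67 after BPA and by 0.79 after vehicle, and Nrf1 by 0.49 and 0.33. Pprc1 stood at 11.13, 11.09 and 11.05 after BPA with E2 and at 10.39, 10.52 and 10.35 after BPA with vehicle injection, and at 10.49 and 10.47 after vehicle with E2 and 9.70 and 9.68 with vehicle injection. Cytosolic ribosomal proteins (60 symbols, a list added after values were seen, whose probes may share sequence with pseudogenes) had 14 rises and 0 falls after BPA with vehicle injection (23.3%), and 3 (5.00%) and 1 (1.67%) in the E2 response after vehicle.

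Cell markers also differed between the groups, in an order that varied with the cell type. The summed linear intensity of 5 macrophage markers (Cd68 was not tested) was 1420 to 1512 after BPA with E2, 1584 to 1785 after BPA with vehicle injection, 1941 to 2001 after vehicle with E2 and 3311 to 3407 on the vehicle-vehicle arrays, where the mitochondrial ribosomal genes were lowest. The sum over 7 epithelial markers was 7461 to 7961 after BPA with E2, 16413 to 18927 after BPA with vehicle injection, 14293 to 14431 after vehicle with E2 and 20013 to 20802 with vehicle injection. The 6 stromal markers summed to 33650 to 35872 after BPA with E2, against 45299 to 45855 after BPA with vehicle injection, and to 44761 to 45119 after vehicle with E2, against 49481 to 51952 with vehicle injection. The 6 smooth muscle markers summed to 68812 to 72266 after BPA with E2 and to 79124 to 91835 in the other groups. Adipocyte markers (3 of 6 tested; Plin1, Fabp4 and Cfd were not) summed to 4096 to 4328 after BPA with E2 and to 1203 to 2426 elsewhere, mast cell markers (6 of 6) to 4562 to 4703 and 2246 to 3411, and endothelial markers (6 of 6) to 3729 to 3904 and 2878 to 3710. The part of any of these cell types in the changes of the mitochondrial ribosomal genes was not tested.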

How the data were processed

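Uterine RNA of 10 litter pools and injections was hybridised to Illumina bead arrays, after TRIzol and RNeasy Plus purification and labelling of cRNA with biotin, per the labels' protocols. The deposited signals are mean bead intensity values per probe, not normalized, each with a detection p-value per array, per the file headers. A second deposited table of the authors holds processed intensity values on a linear scale, and the method behind it is not given in the sources used here. It served only as an alternative.

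The neqc step of limma 3.58.1 (R 4.3.3, offset 16) corrected background from the detection p-values, quantile-normalized the arrays and gave log2 values. Probes detected at p under 0.05 on 2 or more arrays were kept, 23942 of 45281. Each symbol took its kept probe with the highest mean (12403 genes), and 3869 kept probes without a single symbol stood for themselves, 16272 in all. Of all probes, 34885 had 1 symbol, 18 several and 10378 none. Group means of the 4 groups were fitted with limma to all 10 arrays, with moderated two-sided tests with Benjamini-Hochberg adjustment over all 16272, called at an adjusted p under 0.05. Precision rests on 2 or 3 arrays a group, and p-values measure the spread between litter pools.

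The labels' litter numbers pair the E2 and vehicle arrays of a litter. Residuals of paired arrays correlated at -0.041 to 0.022 over all genes, so no likeness was seen. As an alternative, litter entered the E2 responses as a fixed block. For the BPA effects it was a random one (duplicateCorrelation with statmod 1.5.0, consensus 0.00993). Leaving out each array, the compared groups alone, array weights, trended robust variances, every probe, other filters, the authors' table, cyclic loess and uncorrected background were also tried.

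The members, role and context lists were chosen with earlier results of these data known. By rule, the text names per comparison up to 8 called members in each direction, the 2 smallest changes, the extremes of each role class and up to 4 genes per context list. Other members (such as the rest of the 26 rises after BPA) and other probes were named after their values were seen. Promoter windows and start sites came from RefSeq tables. The fits were tested on simulated data. Python 3.11.15 and matplotlib 3.10.9 drew the figures.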

Additional observations from a re-analysis of the deposited data

Results flagged for a closer look

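In a test of the difference itself, the E2 response differed between the in utero exposures for 5 of the 73 genes. Each had a lower response after BPA. These 5 are 6.85% of the members, below the 7.70% of everything tested that had a lower response. With litter as a block, Mrps6 and Mrpl18 kept their call, whereas Mrpl34, Mrps18c and Mrpl40 did not. Mrps6 differed by -0.63 log2. It stood at 10.71, 10.63 and 10.58 after BPA with E2 and at 11.10, 10.99 and 11.13 after BPA with vehicle injection, and at 10.63 and 10.76 after vehicle in utero with E2 and 10.47 and 10.53 with vehicle injection. Mrpl18 differed by -0.62, with responses of -0.21 after BPA and 0.41 after vehicle. Mrpl34 differed by -0.45, with responses of -0.41 after BPA and 0.05 after vehicle. Mrps18c differed by -0.45. It stood at 10.31, 10.39 and 10.26 after BPA with E2 and at 10.53, 10.53 and 10.50 with vehicle injection, and at 10.29 and 10.44 after vehicle in utero with E2 and 10.18 and 10.05 with vehicle injection. Mrpl40 differed by -0.44, with responses of 0.02 after BPA and 0.46 after vehicle. The 5 genes are not of 1 shape, since Mrps6 and Mrpl34 fell after BPA and were not called after vehicle, whereas Mrpl18 and Mrpl40 rose after vehicle and were not called after BPA. Mrps18c was called in neither response.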

How the results depend on the processing

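No called change of a member turned its direction under the alternatives; changes that were not called were not followed one by one. Calls that held under all 20 alternatives were 4 of 10 for the E2 response after BPA, 1 of 13 (Mrps18b) after vehicle, 11 of 26 for BPA with vehicle injection and 5 of 11 for BPA with E2, and under the 19 run for the difference, 2 of 5. Cyclic loess left 52 members above 0 in the E2 response after vehicle (60 without it) and 57 after BPA with vehicle injection (64). With litter as a replicate block, rises numbered 3 in the E2 response after BPA (6 without it) and 5 after vehicle (13). Lower differences numbered 2 (5). The block changed no other count by over 1.5 times. No call of the BPA effects changed, but at a consensus correlation of 0.00993 the block could hardly alter that fit. Without background correction the E2 response after BPA had 11 rises and 9 falls, and BPA with E2 18 rises. The authors' table gave 11, 8 and 18. A variance trend with robust estimation gave 13 rises and 10 falls in the E2 response after BPA, 24 rises after vehicle, 11 lower differences, and 20 rises and 4 falls for BPA with E2. Without a filter the E2 response after BPA had 3 rises, differences numbered 2 and BPA with E2 had 1 fall. Cyclic loess gave 3 differences, and testing every probe gave 3 differences and 1 fall for BPA with E2. With the compared groups alone, which gives no value for the difference and fewer arrays for the spread, the E2 response after vehicle had 1 rise (1431 calls over everything tested, against 3643), BPA with vehicle injection 16 rises and BPA with E2 1 fall. Leaving out 1 array gave 1 to 6 rises and 3 to 5 falls in the E2 response after BPA, 4 to 12 rises (2344 to 3515 calls over everything tested) after vehicle, 0 to 1 higher and 2 to 4 lower differences, 16 to 24 rises for BPA with vehicle injection, and 4 to 9 rises and 1 to 2 falls for BPA with E2. Where this leaves a lone array, it is assumed to vary like the other groups. The causes were not tested. Dim probes such as Mrpl35, Mrpl39, Mrpl45, Mrpl51, Mrpl57 and Mrps15 have wide errors.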

Other observations

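The genes that share a start region with a member were read from the same fit, after their values were seen. Of 25 such neighbours 18 were tested, among them Mrpl46 and Mrps11 themselves. After BPA with vehicle injection 4 rose and 1 fell (15.6% and 15.5% of everything tested), and in the E2 response after BPA 3 rose and 5 fell (15.3% and 13.7%). Ndufb5, a respiratory chain complex I gene that starts 308 bases from Mrpl47, changed by -0.60 ± 0.14 (SE) in the E2 response after BPA (adjusted p = 0.0121), where Mrpl47 rose by 0.32. Both rose after BPA with vehicle injection, Ndufb5 by 0.56 and Mrpl47 by 0.35. Klc4, a kinesin light chain gene that starts 141 bases from Mrpl2, changed by -0.30 ± 0.10 after BPA with vehicle injection (adjusted p = 0.0431), where Mrpl2 rose by 0.33. Rab6a, a gene of Golgi traffic whose start overlaps that of Mrpl48, rose in both E2 responses, by 0.50 after BPA and by 0.95 after vehicle, while Mrpl48 changed by -0.11 and 0.16 and was not called in either.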
